A study of Mus musculus with 5 samples.

Results

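Secreted and membrane proteins enter the endoplasmic reticulum (ER) through a channel, are trimmed and glycosylated as they arrive, and are folded by resident chaperones. A set of 57 mouse genes for these steps was described in natural helper cells of the lung, which belong to the group 2 innate lymphoid cells, innate lymphocytes known for secreting type 2 cytokines. The genes were taken by name, with 1 probe set per gene (the one with the highest mean over the 5 arrays), and 55 of the 57 were measured among 19938 genes. Probe sets for Sec61g and Srp54a carried several gene symbols and gave no value, and Ero1l was listed under its newer symbol Ero1a. The members fell into 4 roles: translocon, targeting and signal peptidase (18 measured), N-glycan synthesis and transfer (14), chaperones and disulfide isomerases (16), and ER stress control and degradation (7).

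The lungs came from C57Bl/6 mice, naive and 6 to 8 weeks old, and the sort took lineage-negative cells positive for Sca-1, CD127 and CD25 and with little or no c-Kit. There were 3 unstimulated samples, whose RNA was taken straight after the sort, and 2 samples cultured for 3 days with 60 ng/ml PMA, a phorbol ester and activator of protein kinase C, and 500 ng/ml ionomycin, a calcium ionophore. No cultured sample without these agents was among the arrays, so culture and stimulus cannot be told apart. Whether each sample had its own mice or culture is not stated in the labels, and the p-values therefore measure only the spread between these arrays, which may be technical. Values are log2 expression from 1-colour arrays, each difference is the stimulated minus the unstimulated mean on that scale, and a gene was called where limma's Benjamini-Hochberg adjusted p over all genes was under 0.05.

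All 11 measured marker genes of natural helper cells, among them Gata3, Il7r, Il2ra and Il13, lay above the median of all probe sets (5.64) on every array, and Ly6a, Il1rl1 and Areg had no single-gene probe set. After culture with PMA and ionomycin, 5 of the 11 fell: Il17rb (-3.23), Kit (-2.86), Rora (-0.81), Id2 (-0.78) and Il7r (-0.77). These calls were 45.5% of the list, against 1.7% of all genes. Stimulated values lay wholly below the unstimulated ones for 7 of the 11 (63.6%, against 14% of all genes). Thy1 (-1.34) and Gata3 (-0.51) were among the 7 but not called. Wholly higher were 3 (27.3%, against 18.6%), none of them called: Il13 (2.41), Il5 (0.71) and Il2ra (0.19). The 10 marker lists of other cell types held no gene called in either direction, but several read higher on the unstimulated arrays. Mean levels of the neutrophil list were 6.24, 5.70 and 5.21 on unstimulated arrays 1, 2 and 3 and 4.76 and 4.79 on the stimulated arrays. The lung epithelium list read 6.93, 6.42 and 6.00, then 5.72 and 5.72, and the endothelium and fibroblast list read 7.11, 6.64 and 6.12, then 5.69 and 5.84. The B cell and plasma cell list, whose cell types are rich in ER, read 5.15, 5.27 and 4.83, then 4.86 and 4.89, and 6 of its 9 measured genes were under the median of all probe sets on every array. The T cell list read 7.49, 7.80 and 6.94, then 7.04 and 6.82, and the macrophage and monocyte list 5.77, 5.49 and 5.33, then 5.03 and 5.0, with Lyz2 at a difference of -3.25 (not called).

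Xist, the RNA of the inactive X chromosome in females, fell from 9.09, 10.20 and 9.66 to 4.16 and 4.11. The Y-linked gene Eif2s3y read 8.76, 7.15 and 7.98, then 8.48 and 8.37, and Kdm5d, also Y-linked, read 6.81, 5.69 and 6.62, then 7.41 and 7.42. Female and male transcripts were thus both above the median of all probe sets on the unstimulated arrays, while Xist was below it on the stimulated ones. The labels give no sex, and a difference in sex between the groups cannot be told apart from the other differences between them. In such bulk samples, fewer cells of a type and less RNA per cell cannot be told apart.

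**Figure D1:**
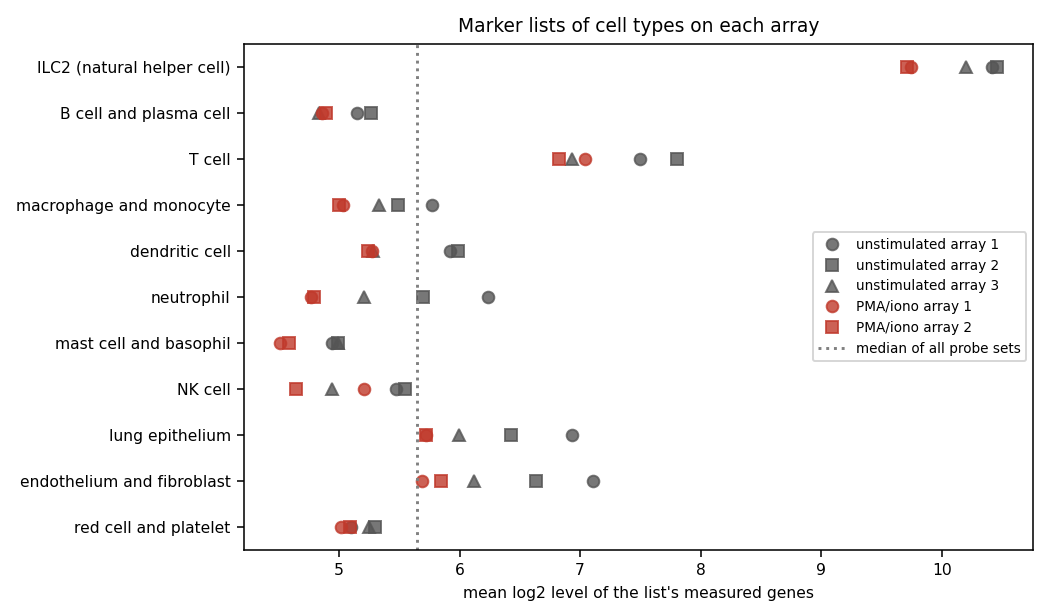
Mean log2 level (x axis) of the measured genes of each cell type's marker list (rows) on the 5 arrays, with unstimulated arrays in grey and PMA and ionomycin arrays in red. The natural helper cell list lies furthest right on every array, and the neutrophil list runs from 6.24 on unstimulated array 1 to 4.76 and 4.79 on the stimulated arrays.

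Cells adjust this machinery through the unfolded protein response. Its sensors are IRE1 (gene Ern1), ATF6 and PERK: IRE1 cuts the Xbp1 message so that it encodes an active transcription factor, ATF6 is released from the membrane by proteolysis, and PERK slows translation. ATF6 and XBP1 bind elements in the promoters of chaperone genes. One is the ER stress response element (ERSE), spelled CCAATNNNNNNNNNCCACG, and a shorter form is ERSE-II, spelled ATTGGNCCACG. XBP1 also binds the unfolded protein response element (UPRE), whose core is TGACGTGG.

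RefSeq promoter sequences (GRCm38.p6, from 250 bases before to 50 bases after a gene's start) matched 45 of the 55 measured members and 15562 of all genes tested. Exact ERSE letters on either strand were present in promoters of 8 members (17.8%) and of 21 genes tested (0.135%), and in 39 of all 32851 promoter windows in the table (0.119%). ERSE-II letters were present in Herpud1 and Dnajb11 (4.44% of members, 0.0578% of genes tested, 0.0365% of all windows). UPRE letters were in no member's window and in 0.912% of genes tested (0.676% of all windows). The ERSE was first described in promoters of ER chaperone genes such as Hspa5, so its presence in these members is background, and a match of letters is a description, not a bound site. No UPRE match says only that these letters are not in this window. No member held more than 1 of these 3 motifs, and the pair of ERSE matches in Hsp90b1 did not overlap.

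The stretches that carry these letters are shown because the genes behind them ranged from a difference of -0.49 (Herpud1, not called) to a 3.33-fold rise (Pdia6). Each runs 5′ to 3′ along the gene, upstream of its start, with the fixed motif letters in capitals. Calr, Creld2 and the second match in Hsp90b1 hold the ERSE on the opposite strand, where it reads CGTGGNNNNNNNNNATTGG. The match in Dnajb11 runs past the gene's start and is not shown.
Pdia6 (chr12:17266471-17266529, + strand): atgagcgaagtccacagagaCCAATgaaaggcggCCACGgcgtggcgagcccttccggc
Creld2 (chr15:88819500-88819558, + strand): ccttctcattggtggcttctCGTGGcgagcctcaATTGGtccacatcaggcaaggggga
Calr (chr8:84847055-84847113, - strand): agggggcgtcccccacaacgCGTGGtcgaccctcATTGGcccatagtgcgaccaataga
Dnajc3 (chr14:118937807-118937865, + strand): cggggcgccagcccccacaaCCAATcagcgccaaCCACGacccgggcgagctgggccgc
Hsp90b1 (chr10:86705513-86705676, - strand): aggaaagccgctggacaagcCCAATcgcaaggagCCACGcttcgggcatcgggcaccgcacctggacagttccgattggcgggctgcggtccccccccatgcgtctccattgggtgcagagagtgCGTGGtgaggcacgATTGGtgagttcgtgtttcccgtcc
Canx (chr11:50325780-50325838, - strand): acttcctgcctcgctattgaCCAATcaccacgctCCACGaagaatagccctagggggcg
Syvn1 (chr19:6046512-6046570, + strand): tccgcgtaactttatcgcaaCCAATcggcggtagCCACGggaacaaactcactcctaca
Hspa5 (chr2:34772005-34772063, + strand): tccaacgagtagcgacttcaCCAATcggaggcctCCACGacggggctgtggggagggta
Herpud1 (ERSE-II, chr8:94386357-94386407, + strand): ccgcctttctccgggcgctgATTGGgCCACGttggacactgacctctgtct

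Differences of the 8 ERSE members spanned from 1.73 for Pdia6 and 1.30 for Creld2 to -0.01 for Hspa5, with a median of 0.44. The 37 members with a window and no ERSE had the same median to that precision, 0.44. Of the 13 other genes with ERSE letters, none was called by limma, near the 1.7% of all genes, and the median difference was -0.02. Of the 8 ERSE members, limma called 2. Stimulated values lay wholly above the unstimulated ones for 7 of those 8 and for 25 of the 37 without ERSE. The same held for 1 of the 13 other genes and for 18.6% of all genes. The contrast between these sets was not tested. The pair with ERSE-II differed in sign, 0.82 for Dnajb11 and -0.49 for Herpud1, and neither was called.

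After PMA and ionomycin, 4 members rose and 1 fell. Pdia6, P4hb, Calr and Dpagt1 rose, and Ern1, the gene of the stress sensor IRE1, fell 5.39-fold. Among all genes tested, 0.737% were called higher and 0.963% lower. Values on the stimulated arrays lay wholly above the unstimulated ones for 41 of the 55 members and wholly below for 4, and the groups overlapped for 10. Over all genes those shares were 18.6% and 14%. Differences were above 0 for 47 members (85.5%) against 49.8% of all genes, and the members' median was 0.45 against 0.00 for all genes. All 5 calls were lost without unstimulated array 1 or without unstimulated array 2, fits that called 0.0351% and 0% of all genes. A fit without a stimulated array keeps only 1 in that group, so its calls are not given. Over all alternatives the difference of Ern1 ran from -2.55 to -2.34 and that of Pdia6 from 1.62 to 1.81. Those of Dpagt1, P4hb and Calr ran from 1.26 to 1.43, 0.66 to 0.75 and 0.52 to 0.60. Without unstimulated array 3, where 0.441% of all genes were called, Ern1 kept its call, the 4 rises lost theirs and Hsp90b1 was called higher. With robust variances in limma the 4 rises also missed the threshold (adjusted p of 0.0584 to 0.0646) and Ern1 kept its call. Testing only genes of higher mean level, or normalizing the arrays again, gave 16 to 19 members higher and 2 lower. Those settings called 5.95% to 14.9% of all genes they tested.

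**Figure D2:**
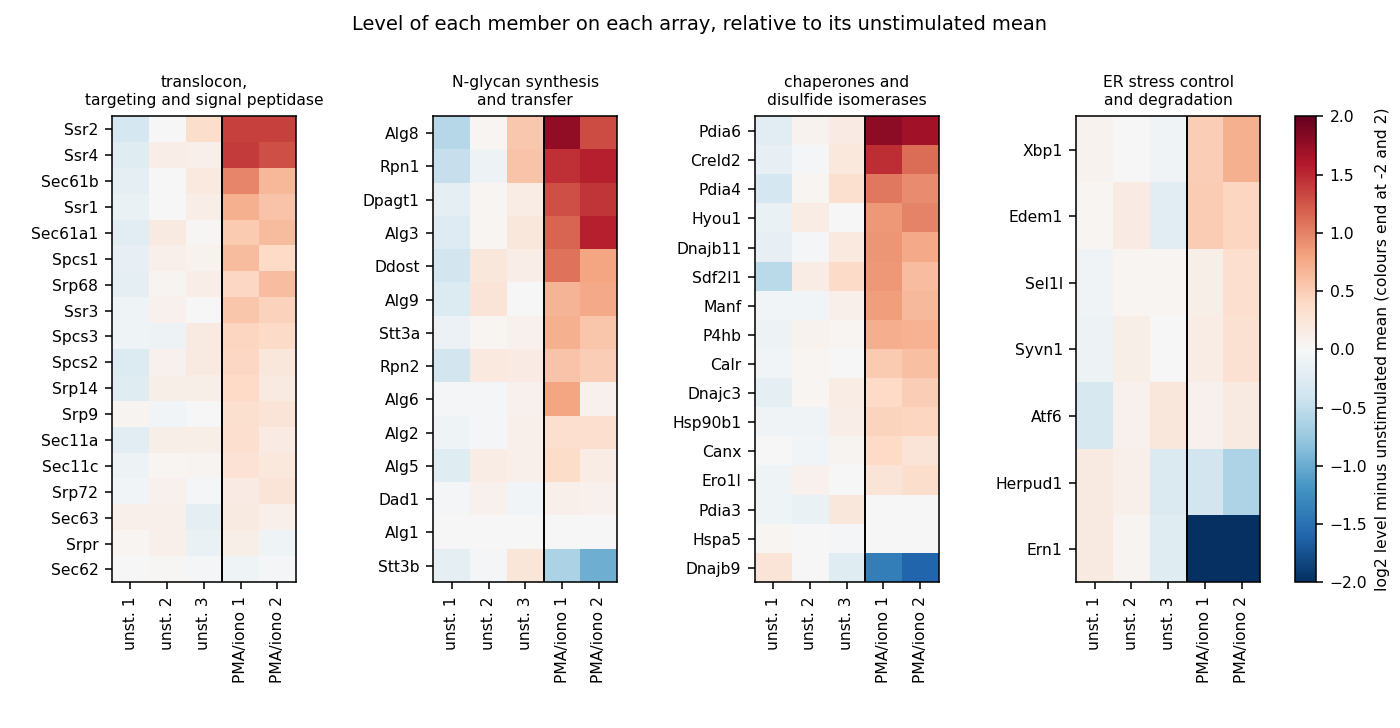
Log2 level of every measured member (rows, by role) on each of the 5 arrays (columns), minus that member's mean over the 3 unstimulated arrays; red is higher, blue lower. Most rows are red on both PMA and ionomycin arrays, while Ern1, Dnajb9, Stt3b and Herpud1 are blue there.

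The unstimulated arrays were not alike. Unstimulated array 1 held the lowest unstimulated value for 40 of the 55 members, unstimulated array 2 for 5 and unstimulated array 3 for 10. The count for unstimulated array 1 includes Alg1, whose values were equal on all arrays. The mean over all members was 8.50, 8.68 and 8.72 on unstimulated arrays 1, 2 and 3 and 9.12 and 9.05 on the stimulated arrays. The neutrophil, macrophage, epithelial and endothelial marker lists ran the other way across these arrays, highest on unstimulated array 1 and lower on both stimulated arrays, and their part in the members' differences was not tested.

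Entry into the ER starts with the signal recognition particle, which binds a nascent signal sequence and docks on its receptor at the Sec61 channel. No gene of this role was called, and the median difference was 0.36. Stimulated values lay wholly above the unstimulated ones for 15 of 18 (83.3%, against 18.6% of all genes). The largest differences were in the TRAP complex, which sits beside the channel and helps it open for some signal sequences. Its subunit gene Ssr4 read 8.68, 9.05 and 9.02 on the unstimulated arrays and 10.32 and 10.21 on the stimulated ones. That is a difference of 1.35 ± 0.14 SE, just outside the threshold (adjusted p = 0.0529). Ssr2 read 8.64, 8.99 and 9.34, then 10.36 and 10.36, a difference of 1.37 ± 0.24 SE (adjusted p = 0.0927). The other subunit genes were 0.64 ± 0.10 SE (Ssr1) and 0.51 ± 0.07 SE (Ssr3) higher, not called, so the 4 TRAP genes had groups that did not overlap.

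Sec61b, a small subunit of the channel, read 9.06, 9.24 and 9.45, then 10.22 and 9.91 (0.82 ± 0.17 SE, adjusted p = 0.115). Its further probe sets gave differences of 0.68 and 0.76. Sec61a1, which forms the pore, read 8.20, 8.58 and 8.43, then 8.92 and 9.03 (0.58 ± 0.14 SE, adjusted p = 0.143). Both genes separated the groups without being called. Sec62 and Sec63, which serve the channel in post-translational import, overlapped between groups, with differences of -0.05 (95% interval -0.13 to 0.02) and 0.14 (-0.20 to 0.47).

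Subunits of the signal recognition particle were a little higher and not called: Srp68 by 0.51 ± 0.13 SE, Srp14 by 0.29 ± 0.16 SE, Srp9 by 0.29 ± 0.04 SE and Srp72 by 0.21 ± 0.06 SE. For Srp9 a further probe set gave 0.17. The receptor gene Srpr differed by 0.02, with a 95% interval of -0.29 to 0.33. Signal peptidase cuts the signal sequence off inside the ER. Its 5 genes were each higher on both stimulated arrays than on any unstimulated array, as were 18.6% of all genes. Their differences were 0.25 (Sec11c and Sec11a) to 0.52 (Spcs1), with adjusted p of 0.150 to 0.458. The gap between groups was as small as 0.039 for Spcs2.

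N-glycans are assembled on the lipid dolichol and then moved to the protein by the oligosaccharyltransferase. Dpagt1, the enzyme that starts the lipid-linked glycan, read 6.00, 6.24 and 6.34 in unstimulated cells and 7.48 and 7.62 after PMA and ionomycin. It rose 2.57-fold (1.36 ± 0.13 SE, adjusted p = 0.0479), the only call among 14 genes of this role. The 14 had a median difference of 0.58, with 9 wholly higher and 1 wholly lower on the stimulated arrays. Those were 64.3% and 7.14%, against 18.6% and 14% of all genes.

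The mannosyltransferase gene Alg3 read 5.98, 6.28 and 6.47, then 7.40 and 7.79, a difference as large as that of Dpagt1 but with more spread (1.35 ± 0.21 SE, adjusted p = 0.0820). Alg8, which adds glucose to the glycan, had the role's largest difference and its largest error, reading 6.55, 7.16 and 7.66, then 8.90 and 8.42 (1.54 ± 0.41 SE, adjusted p = 0.167). Alg9, another mannosyltransferase gene, differed by 0.72 ± 0.18 SE and Alg2, likewise a mannosyltransferase gene, by 0.33 ± 0.06 SE, each without overlap and not called. Alg6, a glucosyltransferase gene, read 6.52 on stimulated array 1 and 5.82 on stimulated array 2, the latter equal to unstimulated array 3. Alg5, which makes the glucose donor, also met an unstimulated value (0.25 ± 0.16 SE). Alg1 had a single deposited value, 6.72, on all 5 arrays, so it carries no information on a difference.

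Among subunits of the oligosaccharyltransferase, the catalytic genes Stt3a and Stt3b had differences of opposite sign. STT3A works beside the translocon on proteins still being made, and STT3B acts on sites that were missed. Stt3a read 10.20, 10.35 and 10.40 in unstimulated cells and 11.03 and 10.88 after PMA and ionomycin (0.64 ± 0.09 SE, adjusted p = 0.0694). Stt3b read 9.55, 9.72 and 10.00, then 9.13 and 8.78 (-0.80 ± 0.19 SE, adjusted p = 0.144). The groups did not overlap for either gene, neither was called, and the contrast between them was not tested. Of the shared subunits, Rpn1 read 7.61, 7.97 and 8.66, then 9.54 and 9.64 (1.51 ± 0.36 SE, adjusted p = 0.143). Ddost differed by 0.94 ± 0.23 SE and Rpn2 by 0.53 ± 0.21 SE without overlap, and Dad1 by 0.10 (95% interval -0.06 to 0.25) with overlap.

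**Figure D3:**
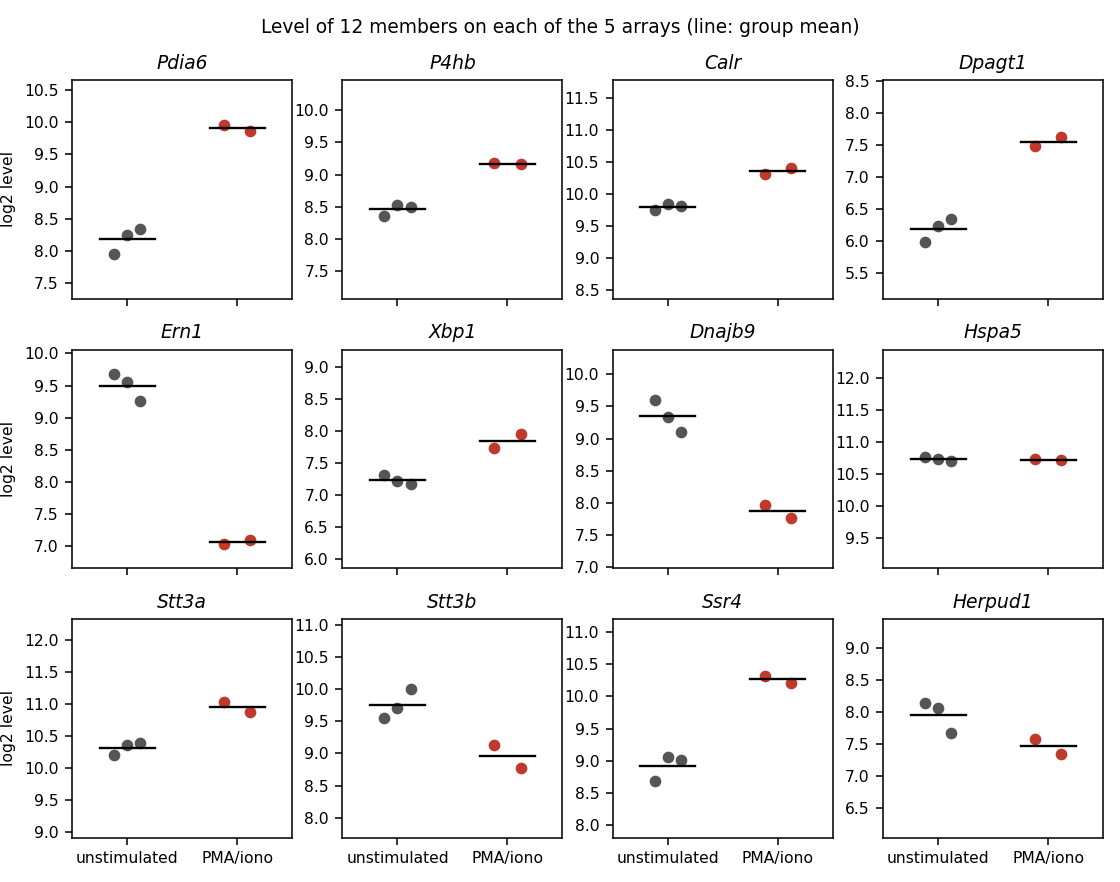
Log2 level of 12 members on each array, with unstimulated arrays in grey, PMA and ionomycin arrays in red and group means as lines; every panel spans the same number of log2 units. Pdia6, P4hb, Calr, Dpagt1, Xbp1, Stt3a and Ssr4 are higher on both stimulated arrays, Ern1, Dnajb9, Stt3b and Herpud1 are lower, and Hspa5 stays between 10.71 and 10.77.

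Chaperones and disulfide enzymes gave 3 of the 4 rises. Pdia6, a protein disulfide isomerase that also binds IRE1, read 7.95, 8.24 and 8.33 in unstimulated cells and 9.96 and 9.86 after PMA and ionomycin. It rose 3.33-fold (1.73 ± 0.14 SE, adjusted p = 0.0414), the largest difference above 0 among the members. P4hb, the founding protein disulfide isomerase, read 8.36, 8.52 and 8.49, then 9.18 and 9.16, and rose 1.64-fold (0.71 ± 0.06 SE, adjusted p = 0.0439). Calr, the lectin chaperone calreticulin, read 9.74, 9.85 and 9.81, then 10.32 and 10.40, and rose 1.47-fold (0.56 ± 0.05 SE, adjusted p = 0.0426). Their standard deviations over the unstimulated arrays were 0.20, 0.09 and 0.05, and none of the 3 had overlapping groups.

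Hspa5, the ER Hsp70 chaperone BiP and the usual marker of ER stress, read 10.77, 10.73 and 10.71 in unstimulated cells and 10.73 and 10.72 after PMA and ionomycin. Its difference was -0.01, with a 95% interval of -0.07 to 0.06. The same deposited value, 10.72981, stands for unstimulated array 2 and stimulated array 1. Pdia3, the isomerase that works with calreticulin and calnexin, differed by -0.01 with a wider interval of -0.39 to 0.37, since unstimulated array 3 read 10.77 against 10.46 and 10.41. The ER Hsp90 gene Hsp90b1 read 11.18, 11.18 and 11.37, then 11.68 and 11.67 (0.44 ± 0.08 SE, adjusted p = 0.0924). Hyou1, a large Hsp70 relative that serves BiP as an exchange factor, read 6.55, 6.83 and 6.67, then 7.55 and 7.67 (0.93 ± 0.10 SE, adjusted p = 0.0549). Neither of these was called, and in both the groups did not overlap.

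The genes for J-domain proteins, partners of BiP, had differences of both signs. Dnajb9, a known target of XBP1 whose product holds IRE1 inactive, read 9.60, 9.34 and 9.10 in unstimulated cells and 7.97 and 7.77 after PMA and ionomycin (-1.48 ± 0.18 SE, adjusted p = 0.0619). Dnajb11 read 8.46, 8.57 and 8.82, then 9.50 and 9.37 (0.82 ± 0.13 SE, adjusted p = 0.0853). Dnajc3, also an inhibitor of PERK, differed by 0.45 ± 0.13 SE. None of the 3 was called, and each had groups that did not overlap.

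The remaining members of this role were higher without being called. Creld2, a stress-induced disulfide isomerase, read 7.02, 7.15 and 7.39, then 8.66 and 8.31 (1.30 ± 0.17 SE, adjusted p = 0.0687). Manf, a stress-induced protein that binds BiP, read 8.65, 8.65 and 8.81, then 9.54 and 9.35 (0.74 ± 0.09 SE, adjusted p = 0.0625). Pdia4, a further disulfide isomerase, differed by 1.0 ± 0.24 SE, and its dimmer probe set by 0.29. Sdf2l1, a component of a BiP complex, differed by 0.74 ± 0.34 SE, with unstimulated arrays from 6.32 to 7.24. Smaller differences were those of the lectin chaperone Canx (0.33 ± 0.06 SE) and of Ero1l, the oxidase that recharges the disulfide isomerases (0.30 ± 0.07 SE). The role's median was 0.63, and 0.50 without unstimulated array 1. In the main fit 13 of its 16 genes were wholly higher (81.2%, against 18.6% of all genes).

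**Figure D4:**
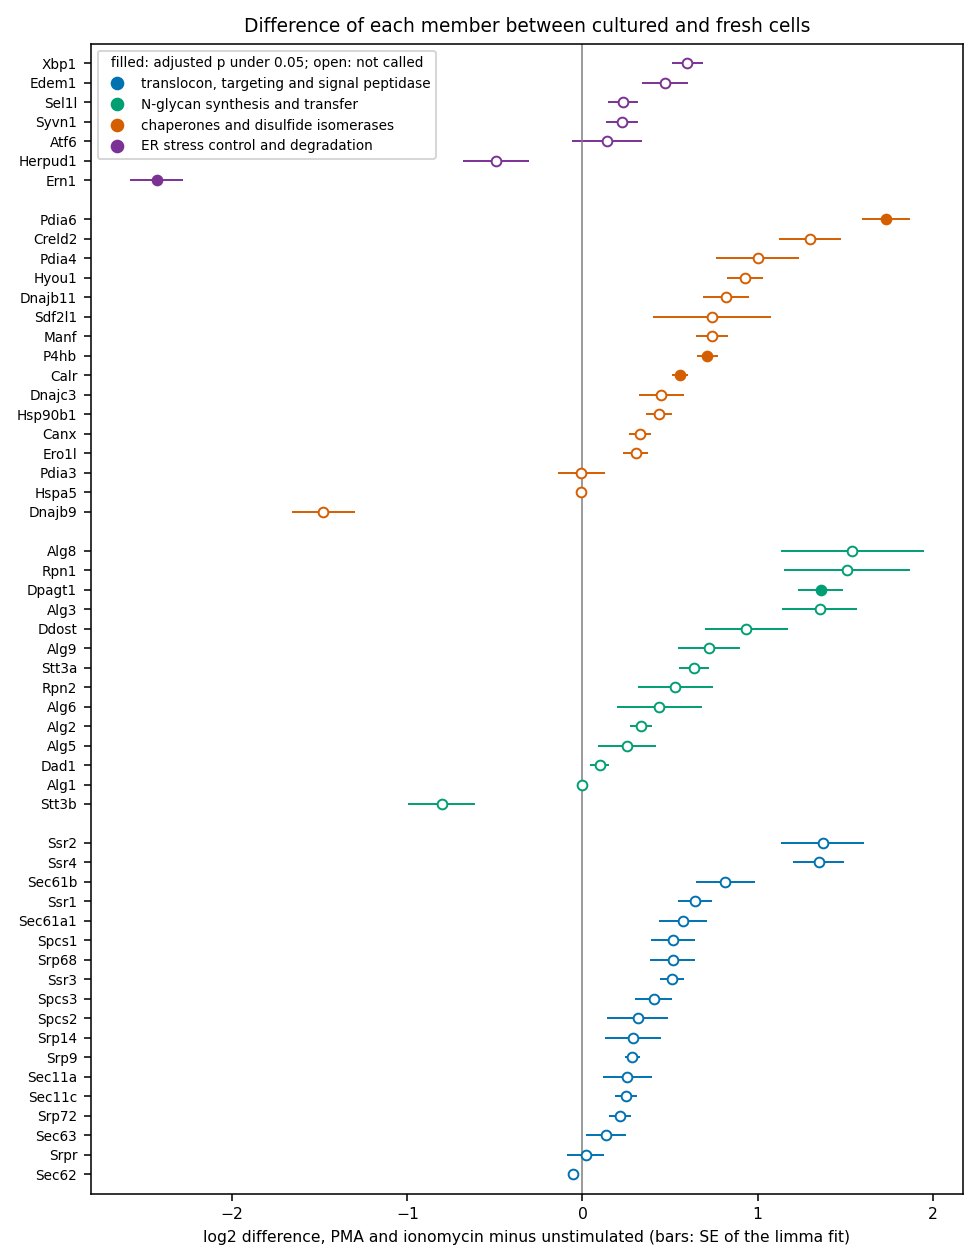
Log2 difference between PMA and ionomycin and unstimulated arrays for each member (x axis), with the SE of the limma fit as bars, coloured by role; filled points passed adjusted p under 0.05. The filled points are Pdia6 at 1.73, Dpagt1 at 1.36, P4hb at 0.71, Calr at 0.56 and Ern1 at -2.43.

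In ER stress control and degradation, Ern1 had the largest difference of any member. It read 9.68, 9.55 and 9.25 in unstimulated cells and 7.03 and 7.10 after PMA and ionomycin (-2.43 ± 0.15 SE, adjusted p = 0.0323). The lowest unstimulated value, 9.25, was thus far above the highest stimulated one, 7.10. Xbp1, the message that IRE1 cuts, read 7.32, 7.23 and 7.18, then 7.73 and 7.95, a difference of the opposite sign that was not called (0.60 ± 0.09 SE, adjusted p = 0.0763). There is 1 value per gene, so the spliced and unspliced forms of Xbp1 were not measured apart. Atf6, the gene of the second sensor, read 7.91, 8.33 and 8.47, then 8.33 and 8.42, with overlapping groups (0.14, 95% interval -0.43 to 0.71).

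Genes of ER-associated degradation, which returns misfolded proteins to the cytosol, showed no call. Herpud1, a stress-induced scaffold of the retrotranslocation complex, read 8.14, 8.06 and 7.67, then 7.58 and 7.34 (-0.49 ± 0.19 SE, adjusted p = 0.294). Edem1, which steers misfolded glycoproteins to degradation, differed by 0.47 ± 0.13 SE. The ubiquitin ligase gene Syvn1 differed by 0.23 ± 0.09 SE and its partner Sel1l by 0.23 ± 0.09 SE. Edem1, Syvn1 and Sel1l had stimulated values wholly above the unstimulated ones, by a gap of 0.034 for Syvn1. In the whole role of 7 genes, 4 were wholly higher (57.1%, against 18.6% of all genes) and 2 wholly lower (28.6%, against 14%). The role's median difference was 0.23, and so few genes do not settle a shift.

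Further genes of the same pathways were counted on lists written from their textbook roles. Of 164 measured, limma called 3 higher and 3 lower. Both directions together were 3.66%, against 1.7% of all genes. Of 40 genes for transport from the ER to the Golgi, Tfg (0.84 ± 0.07 SE), which organizes ER exit sites, and Uso1 (0.62 ± 0.05 SE), a vesicle tether, rose. Arf4, a small GTPase of Golgi traffic, fell (-1.04 ± 0.07 SE). The list's median was 0.47 with 30 genes wholly higher (75.0%, against 18.6% of all genes). Of 31 further N-glycan genes, Nus1, a subunit of the enzyme that makes dolichol, rose from 8.46, 8.58 and 8.70 to 9.70 and 9.82 (1.18 ± 0.09 SE, adjusted p = 0.0394). The list's median was 0.35.

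In the PERK and ATF4 branch, of 17 measured genes, 1 was wholly higher and 4 wholly lower, and the median was -0.11. Those were 5.88% and 23.5%, against 18.6% and 14% of all genes, and so short a list does not settle a shift. Ppp1r15a, which codes for a phosphatase subunit that ends the PERK signal, fell from 10.01, 10.01 and 9.51 to 6.82 and 7.24 (-2.81 ± 0.24 SE, adjusted p = 0.0440). Atf3, a stress-induced transcription factor gene, fell from 11.14, 10.65 and 10.95 to 8.78 and 8.68 (-2.19 ± 0.17 SE, adjusted p = 0.0406). Asns, the asparagine synthetase gene, was the wholly higher one (2.37 ± 0.37 SE, adjusted p = 0.0808, not called) and was chosen after its values were seen.

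No gene was called on the other lists. Among 19 further targeting and insertion genes the median was 0.33, and the largest differences were Tram1 (0.85 ± 0.14 SE, adjusted p = 0.0857) and Emc2 (0.77 ± 0.09 SE, adjusted p = 0.0602). Among 29 further folding genes the median was 0.10, led by Cnpy2 (1.08 ± 0.24 SE, adjusted p = 0.128) and Txndc12 (0.84 ± 0.22 SE, adjusted p = 0.164). Among 28 further degradation and sensor genes it was 0.15, led by Creb3l2 (1.17 ± 0.19 SE, adjusted p = 0.0857) and Selenos (0.99 ± 0.14 SE, adjusted p = 0.0712).

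**Figure D5:**
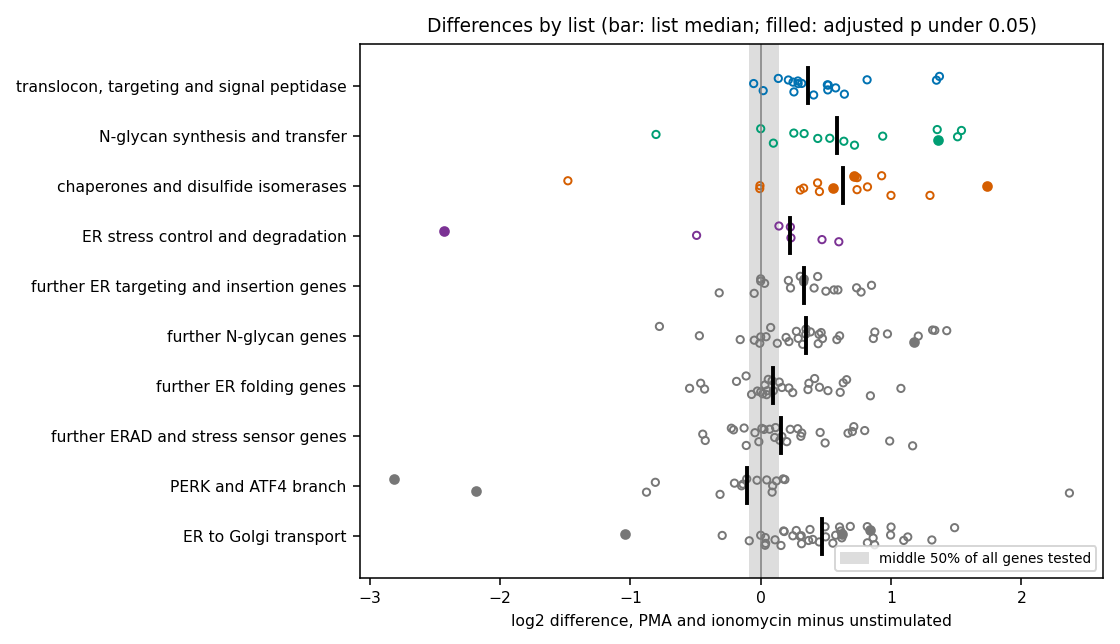
Log2 difference of each gene (points, x axis) in the 4 member roles (coloured) and the 6 further pathway lists (grey), with list medians as bars, called genes filled and the middle 50% of all genes shaded. List medians run from -0.11 for the PERK and ATF4 branch to 0.63 for chaperones and disulfide isomerases.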

How the data were processed

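The values the authors deposited are log2 levels per probe set, made with RMA according to the submitters' processing notes; RMA corrects background, quantile-normalizes the arrays and combines the probes of a set. Software, version and the arrays normalized together are not given in the sources used here. Per the labels, cRNA was made from 6 micrograms of total RNA. There are no detection calls, and the number of arrays limits precision. Of 35556 probe sets, 21789 had 1 gene symbol, giving 19938 genes. limma 3.58.1 (R 4.3.3, lmFit and eBayes, no filter) compared 2 stimulated with 3 unstimulated arrays, with 0.649 prior and 3 residual degrees of freedom. A value recurred on 2 or more arrays for 62.0% of genes and for 10 members. The members were Sec62, Sec63, Srp14, Sec11a, Alg1, Alg5, Alg6, Dad1, Hspa5 and Atf6. Whether such repeats narrow their intervals was not tested. Intervals use the fit's moderated SE. An exact permutation test cannot go below p = 0.1 here, so none is given. Simulated data had known changes in 200 of 19938 genes per draw and normal noise without repeated values. On them the fit called 31.6% of changes of 0.58 log2 units and 62.8% of changes of 1. It called 77.2% of changes of 2 and 90.8% of changes of 3, so a gene not called may still differ. In the real data 3973 genes had an unadjusted limma p under 0.05, so these shares need not carry over. Any member could be named. From each further list up to 4 called genes per direction were named, or the 2 largest differences where none was called. Members and lists were chosen with earlier results of these data known. Alternatives were another variance model, filter, probe set rule, normalization or threshold, a block for the replicate number, and fits that each omit 1 array.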

Additional observations from a re-analysis of the deposited data

How the results depend on the processing

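The main counts were 4 members higher and 1 lower. Higher and lower counts were 19 and 2 with only genes tested whose mean passed the overall probe set median, 17 and 2 after median centring, 16 and 2 after quantile normalization, 16 and 2 after cyclic loess, and 17 and 2 at adjusted p under 0.10. Those settings called 14.9%, 5.95%, 7.79%, 6.45% and 7.27% of all genes. Robust variances called 0 higher and 1 lower (37 members and 3764 of all 19938 genes at an unadjusted p under 0.05). With the replicate number as a block, limma called 0 and 0 members and no gene at all. At an unadjusted p under 0.05 there were 29 members and 3568 of all 19938 genes. Correlations of same-numbered arrays' deviations were -0.145 and -0.0582, and the labels state no pairing. With 2 stimulated arrays their deviations mirror each other exactly, so these correlations are not independent and do not settle whether arrays are paired. Leaving out 1 unstimulated array gave 0 to 1 members higher and 0 to 1 lower, with 0% to 0.441% of all genes called. In limma, 31 to 35 members and 3024 to 3918 of all 19938 genes then had an unadjusted p under 0.05. Leaving out any 1 array gave a chaperone median of 0.50 to 0.65. An intensity trend and other probe set rules kept the same 5 calls. The cause of these shifts was not tested.

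The median over all members ran from 0.40 to 0.50 over all alternatives. The sign changed for 4 uncalled members near 0: Hspa5 (0.014 after median centring; -0.021 to 0.0092 with an array left out), Pdia3 (0.015 after median centring, 0.11 with the block; -0.075 to 0.11), Srpr (-0.017 after cyclic loess, -0.048 with the block; -0.081 to 0.12) and Atf6 (-0.022 to 0.26). The further pathway counts, added after seeing the data, ran from 0 to 30 higher and 0 to 6 lower.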
